A study of Homo sapiens with 3 samples.

Results

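LIN28A, LIN28B, IGF2BP1, IGF2BP2, IGF2BP3, HMGA1, HMGA2, ARID3B and TRIM71 are 9 genes of the oncofetal programme that is set against the let-7 microRNAs. They were taken by name from the let-7 pathway and fetal growth genes with long 3′ UTRs. The rule uses no measured level, but the choice was made with earlier results of these data known. They are 9 of the 61193 genes to which the transcripts in the files could be joined, 19926 of them protein-coding. Transcript levels were measured by RNA-seq in HEK293T, an established line of human embryonic kidney origin with the large T antigen of SV40. The series holds 3 biological replicates of a single condition, cells kept in DMEM with fetal bovine serum and collected 24 h after seeding. Total RNA (2 µg per sample) was turned into libraries with a QuantSeq 3′ mRNA-seq kit, in which priming at poly(A) tails places the reads near transcript ends. Genomic DNA is the material in the labels, but their extraction protocol is for RNA, and the values were treated as RNA-seq. With 1 line and 1 condition there was no contrast to test, and 3 paired values cannot reach a two-sided exact sign-flip p below 0.25, so all values are given as descriptions with their spread over the replicates.

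LIN28A and LIN28B are RNA-binding proteins that bind let-7 precursors and block their maturation, and let-7 in turn represses the LIN28 mRNAs through sites in their 3′ UTRs. The mRNAs of HMGA2, IGF2BP1, IGF2BP3 and TRIM71 carry let-7 sites as well and are known for high levels in fetal tissue and low levels in most adult tissue, where let-7 is abundant. The pathway is therefore described as a switch in which LIN28 and let-7 hold each other down and the let-7 targets follow.

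The let-7 family is shown first because its members share the short stretch by which they find these mRNAs. In RefSeq (GRCh38.p14), 9 mature let-7 and miR-98 sequences come from 12 loci, and all 9 have the same seed, bases 2 to 8 from the 5′ end, in capitals.
let-7a-5p: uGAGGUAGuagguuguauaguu
let-7b-5p: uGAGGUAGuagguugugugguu
let-7d-5p: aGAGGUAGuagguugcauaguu
let-7g-5p: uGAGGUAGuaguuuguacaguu
miR-98-5p: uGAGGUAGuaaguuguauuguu
The stretch of an mRNA that pairs with this seed, written as DNA on the strand of the gene, is CTACCTC (a 7mer match), or CTACCTCA where an A follows it (an 8mer match). A match to it stood in the annotated 3′ UTR of the canonical transcript of every member. In ARID3B the only match lies 9 bases before the annotated transcript end, after the AATAAA in its printed stretch. Whether the ARID3B mRNA in these cells holds that match was not tested. The match nearest to the stop codon is printed for each gene with the 14 bases before it, and the matched bases and a following A are in capitals.
LIN28A: cacagcctattgaaCTACCTCA
LIN28B: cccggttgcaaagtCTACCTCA
IGF2BP1: gtgtgcgaagtaaaCTACCTCA
IGF2BP2: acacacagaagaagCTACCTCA
IGF2BP3: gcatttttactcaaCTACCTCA
HMGA1: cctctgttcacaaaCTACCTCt
HMGA2: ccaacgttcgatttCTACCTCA
ARID3B: atttcaataaacctCTACCTCt
TRIM71: acattgcttaagtcCTACCTCA
The same 7 bases are thus found in all 9 genes, while the bases before them differ from gene to gene. In GRCh38 the matched bases lie at chr1:26427363-26427369 (LIN28A), chr6:105078827-105078833 (LIN28B), chr17:49051076-49051082 (IGF2BP1), chr3:185644221-185644227 on the reverse strand (IGF2BP2), chr7:23311796-23311802 on the reverse strand (IGF2BP3), chr6:34245844-34245850 (HMGA1), chr12:65963313-65963319 (HMGA2), chr15:74598116-74598122 (ARID3B) and chr3:32891983-32891989 (TRIM71), all in the exonic 3′ UTR.

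The libraries held 7019253, 6262175 and 8521624 counts in replicates 1, 2 and 3, and mitochondrial genes took 9.59%, 5.70% and 25.8% of them, so that replicate 3 stood apart. A count of 0 allows up to 3 counts, which at these depths equal 0.427, 0.479 and 0.352 counts per 1000000 (CPM). Such limits cover counting error only, because the reads carry no molecular identifiers. The authors also deposited TPM, the count divided by the length of the transcript and rescaled to 1000000 per library, and levels of different genes are compared on this scale unless CPM is named. Because the reads lie near transcript ends, counts need not rise with transcript length. Division by length then lowers long transcripts relative to short ones, so the order of genes in TPM can differ from that in CPM.

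Relative to one another, HMGA2, IGF2BP2 and IGF2BP1 were high, LIN28B was intermediate, TRIM71 was low, and IGF2BP3, ARID3B, HMGA1 and LIN28A had few counts or none. Of the 9 genes, 6 reached 1 TPM on average, a level reached by 21.7% of all matched genes, 38.2% of protein-coding genes and 53.4% of the 7600 protein-coding genes whose 3′ end was covered by a single listed transcript, a property explained below. The median over the 9 genes was 4.62 TPM, against 0.195 TPM over all protein-coding genes and 1.83 TPM over those 7600. Summed, the 9 genes reached 945 ± 229 TPM (SD, n = 3) and held 0.347%, 0.360% and 0.252% of the counts of replicates 1, 2 and 3. HMGA2, IGF2BP1 and IGF2BP2 alone held 94.6% of the counts of the group.

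**Figure D1:**
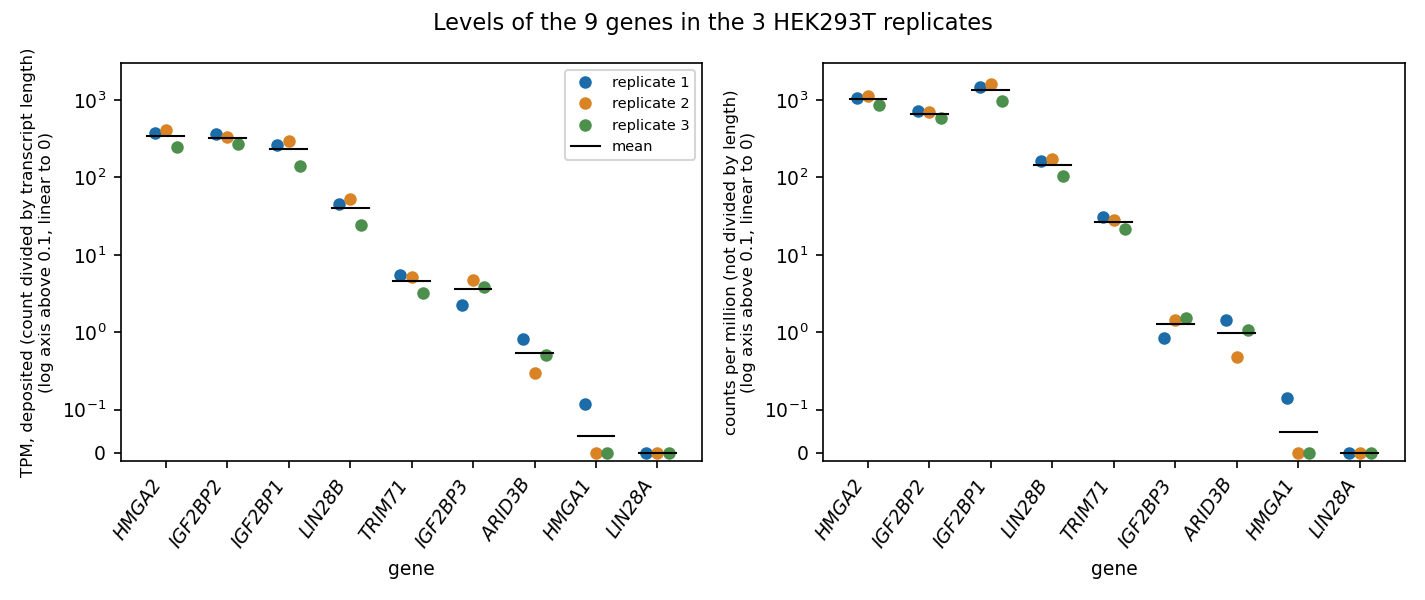
Level of each of the 9 genes in each replicate, as deposited TPM (left) and as CPM (right), on axes that are logarithmic above 0.1 and linear down to 0; coloured points are replicates and the black line is their mean (n = 3). HMGA2, IGF2BP2 and IGF2BP1 lie between 140 and 410 TPM in all replicates, LIN28B lies below them between 24.1 and 52.3 TPM, and LIN28A is at 0 in all replicates.

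LIN28B (ENSG00000187772, chr6:104936616-105083332, forward strand), the regulator of let-7 maturation found in many tumours, had 1136, 1093 and 875 counts in replicates 1, 2 and 3. This equalled 46.0, 52.3 and 24.1 TPM, or 40.8 ± 14.8 TPM (SD, n = 3), above 81.5% of the protein-coding genes with a 3′ end of their own. The value of replicate 3 was the lowest, below those of the other two replicates. All of these counts stood on LIN28B-201, the canonical transcript of 5446 bases, and LIN28B-202 and LIN28B-203 had 0. LIN28B-201 runs past the end of LIN28B-203, so that chr6:105080480-105083332, its last 2853 bases and all within the 3′ UTR, belong to it alone.

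LIN28A (ENSG00000131914, chr1:26410817-26429728, forward strand), the paralog used by pluripotent cells, had 0 counts in all 3 replicates. Its 2 listed transcripts share nearly all of their 3′ ends, and only 3% of the last 300 exonic bases of LIN28A-202 lie in a single transcript, so this 0 does not show that the gene was silent. On the deposited scale the mean of log2(TPM + 1) of LIN28B minus that of LIN28A was 5.31 ± 0.58 (SD, n = 3). With LIN28A at 0 the added 1 sets this value, which was 8.60 with an added 0.1 and 7.17 in CPM. LIN28B exceeded the TPM that 3 counts on LIN28A-202 would give at least 276-, 266- and 213-fold in replicates 1, 2 and 3. These are comparisons of the deposited rows, not of the output of both genes.

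The 3 IGF2BP genes encode RNA-binding proteins that bind and protect target mRNAs, among them that of the fetal growth factor IGF2. IGF2BP1 (ENSG00000159217, chr17:48997385-49056145, forward strand) had 10415, 9948 and 8192 counts and 261, 296 and 140 TPM, with a mean of 232 ± 81.8 TPM (SD, n = 3). IGF2BP2 (ENSG00000073792, chr3:185643130-185825042, reverse strand), the paralog that stays on in many adult tissues, had 5049, 4328 and 4961 counts and 366, 331 and 266 TPM, with a mean of 321 ± 50.6 TPM. IGF2BP2 was above IGF2BP1 in TPM in each of the 3 replicates, although their ranges overlapped. In counts the order was turned, because IGF2BP1-201 is 8796 bases long and TPM divides by length, so IGF2BP1 had 1345 ± 336 CPM and IGF2BP2 664 ± 72.4 CPM. IGF2BP1 took 41.5%, 46.9% and 34.2% of the TPM of the 3 paralogs, 40.9 ± 6.38% on average (SD, n = 3), but 66.4 ± 3.80% of their CPM.

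IGF2BP3 (ENSG00000136231, chr7:23310209-23470491, reverse strand) had 6, 9 and 13 counts, equal to 2.28, 4.69 and 3.86 TPM and to a mean of 3.61 ± 1.23 TPM (SD, n = 3) or 1.27 ± 0.364 CPM. It held 0.683 ± 0.295% of the TPM of the 3 paralogs. Of its 28 counts, 26 stood on IGF2BP3-210, a retained-intron transcript of 500 bases, and IGF2BP3-201, the canonical coding transcript of 4274 bases, had 0 counts in every replicate. The last 300 exonic bases of IGF2BP3-201 lie in no other listed transcript of its strand, but all of them are also covered, on the opposite strand, by MALSU1-202, which had 99, 93 and 92 counts and was chosen after its values were seen. MALSU1-202 ends at chr7:23311729, within the 3′ UTR of IGF2BP3-201, so the overlap is mutual. Whether the authors counted by strand is not given in the sources used here. Among protein-coding genes whose 3′ end was their own on its strand, the canonical transcript had a median of 2 summed counts where the other strand was covered throughout (266 genes) and of 54 where it was free (6983 genes). The share of these genes whose canonical transcript had no more than 3 counts in any replicate was 56.4% and 39.4%, respectively. With all transcripts of the gene summed it was 39.1% and 37.0%. No count of IGF2BP3 stood on the row of its canonical coding transcript. Whether the overlap bears on this was not tested.

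The HMGA proteins are small chromatin proteins that bind the minor groove of AT-rich DNA. HMGA2 (ENSG00000149948, chr12:65824460-65966291, forward strand), the fetal member of the pair, had 7541, 7019 and 7255 counts and 373, 410 and 244 TPM, with a mean of 342 ± 87.0 TPM (SD, n = 3), the highest mean TPM of the 9 genes. In TPM it was above IGF2BP2 in 2 of 3 replicates and their ranges overlapped, so the order of these 2 genes was not resolved on that scale. HMGA2-204, the canonical transcript, held 7513, 6994 and 7219 of the counts, and HMGA2-210, whose 3′ UTR is the longest annotated for the gene at 7421 bases, held 11, 9 and 12.

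HMGA1 (ENSG00000137309, chr6:34236873-34246231, forward strand), the member known for expression in most dividing cells, had 1, 0 and 0 counts. HMGA1 is listed with 6 transcripts, and none of the final 300 exonic bases of its canonical transcript HMGA1-201 belongs to that transcript alone. The mean of log2(TPM + 1) of HMGA1 minus that of HMGA2 was -8.34 ± 0.38 (SD, n = 3), again a comparison of rows whose value rests on the added 1, and it was -11.33 with an added 0.1 and -9.92 in CPM. The housekeeping genes GAPDH and ACTB were chosen for comparison after their values were seen. GAPDH had 0 counts in all replicates with 11 listed transcripts and no 3′ end base of its own, and ACTB, likewise without such a base, had 1 count in each, so that a low value in such a gene is not informative. Not all genes of this kind were low, as 26.0% of the 7840 protein-coding genes without such a base reached a mean of 1 TPM.

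TRIM71 (ENSG00000206557, chr3:32817997-32897824, forward strand), an RNA-binding ubiquitin ligase of the early embryo and a classical let-7 target, had 214, 175 and 185 counts. This equalled 5.42, 5.24 and 3.19 TPM, a mean of 4.62 ± 1.24 TPM (SD, n = 3), in a gene with a single listed transcript of 8704 bases. Its TPM range overlapped that of IGF2BP3, but on the CPM scale TRIM71, at 26.7 ± 4.52 CPM, stood above IGF2BP3 in all 3 replicates without overlap. ARID3B (ENSG00000179361, chr15:74541206-74598131, forward strand), a DNA-binding protein with an AT-rich interaction domain, had 10, 3 and 9 counts and 0.545 ± 0.270 TPM. All of them stood on ARID3B-205, a retained-intron transcript, and the canonical ARID3B-201, with 0.667% of its 3′ end to itself, had 0.

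In order of mean TPM, neighbouring genes whose ranges over the replicates did not overlap were IGF2BP1 and LIN28B, LIN28B and TRIM71, IGF2BP3 and ARID3B, and ARID3B and HMGA1. HMGA2, IGF2BP2 and IGF2BP1 lay above 97.6%, 97.3% and 96.1% of the protein-coding genes with a 3′ end of their own, and TRIM71 above 57.1%. The order of the upper 3 genes depended on the scale. In CPM it was IGF2BP1 (1345 ± 336), HMGA2 (1016 ± 144) and IGF2BP2 (664 ± 72.4), each above the next in all 3 replicates. The CPM ranges of IGF2BP1 and HMGA2 overlapped, and those of HMGA2 and IGF2BP2 did not. The separation of IGF2BP3 and ARID3B also depended on the scale. In CPM they were at 1.27 ± 0.364 and 0.987 ± 0.477, their ranges overlapped, and IGF2BP3 was higher in 2 of 3 replicates.

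The members differed in the sharing of their 3′ ends, and whether this bears on their levels was not tested. The last 300 bases of exon sequence of the canonical transcript lay in no other listed transcript of the same strand for LIN28B, IGF2BP1, IGF2BP2, IGF2BP3, HMGA2 and TRIM71, and these 6 are also the genes that reached 1 TPM, although the counts of IGF2BP3 stood on another transcript. The share was 3% in LIN28A, 0.667% in ARID3B and 0% in HMGA1. Across the protein-coding genes whose canonical transcript is listed in the files, the median count summed over the replicates was 71.5 for the 7600 genes with such an end of their own, 3 for the 3911 with a part of it and 1 for the 7840 without it. In 36.8%, 54.8% and 62.8% of these genes, respectively, no replicate had more than 3 counts. The levels of LIN28A, HMGA1 and ARID3B were therefore not compared further with those of the other genes.

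**Figure D2:**
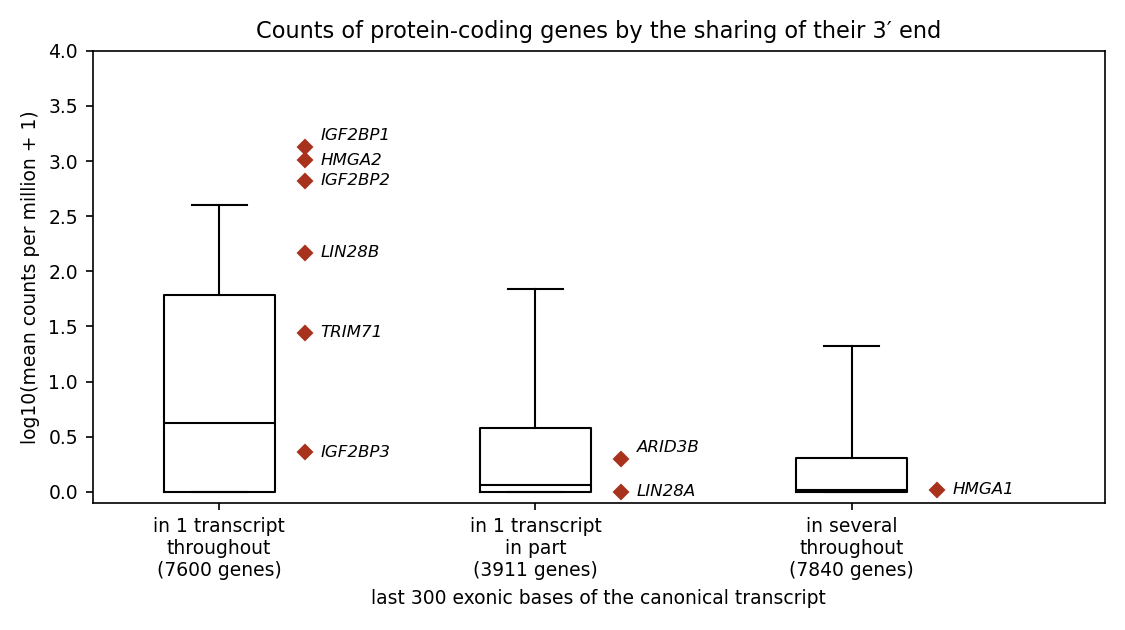
Mean CPM of protein-coding genes, as log10 of the value plus 1, by whether the final 300 exonic bases of a canonical transcript lie in a single listed transcript of the strand throughout, in part, or not at all; boxes give the quartiles and median, whiskers the 5th and 95th percentiles over genes, and red diamonds the 9 genes. IGF2BP1, HMGA2 and IGF2BP2 lie above the upper whisker of the first class, while LIN28A and HMGA1 lie at the bottom of the others.

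Most counts stood on a single transcript of each gene. The most counted transcript held 99.6% of the counts of HMGA2, 96.9% of those of IGF2BP2 and all of those of LIN28B and TRIM71. IGF2BP2 was the exception on the TPM scale. IGF2BP2-211 (chr3:185675016-185675846), a transcript of 472 bases without a defined coding sequence inside the gene, had 157, 51 and 232 counts, or 3.07% of the counts of the gene. Division by its short length made this 20.05%, 8.52% and 27.7% of the TPM of IGF2BP2, with the lowest share in replicate 2. Without this transcript, IGF2BP2-202 alone stood at 292, 302 and 192 TPM, with a mean of 262 ± 60.9 TPM, between HMGA2 and IGF2BP1.

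The 3′ UTRs of the 9 canonical transcripts were 1347 bases (HMGA1) to 6701 bases (IGF2BP1) long, with a median of 2999 bases, against 1064 bases over 19550 canonical protein-coding 3′ UTRs, as the choice of members implies. They held 23 let-7 seed matches, 13 of them 8mers. At least 1 match was found in 9.76% of all canonical 3′ UTRs and in 20.9% of the 6017 that are at least 2000 bases long. Per kb the 9 genes held 0.723 matches and all canonical 3′ UTRs 0.0632. Several of the 9 are classical let-7 targets, so these numbers describe the choice of members. TRIM71 held 6 matches, and LIN28B, IGF2BP1 and HMGA2 held 4 each, whereas 36 of all canonical 3′ UTRs (0.184%) held at least 3.

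The 4 genes with several matches differed in where these lie. The matches of HMGA2 are shown because they span nearly the whole 3′ UTR, at 21, 1256, 1668 and 2521 bases after the stop codon, and the capitals again mark the matched bases.
HMGA2 match 1: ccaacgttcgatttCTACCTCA
HMGA2 match 2: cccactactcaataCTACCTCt
HMGA2 match 3: tgacttgcaaagacCTACCTCc
HMGA2 match 4: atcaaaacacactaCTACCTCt
Only the match nearest to the stop codon is an 8mer. LIN28B had an 8mer at 44 bases and 3 further matches at 2471, 2653 and 4092 bases after the stop codon, and these 3 lie in the stretch that LIN28B-201 does not share. In IGF2BP1 all 4 matches lie from 1632 bases onward. TRIM71 had a first pair at 172 and 252 bases and a cluster of 3 at 4009, 4032 and 4107 bases, shown for their close spacing.
TRIM71 match 4: cttttgctgagtttCTACCTCA
TRIM71 match 5: ttgtggcaagtcatCTACCTCA
TRIM71 match 6: gtgggagtgggaagCTACCTCt
The matches within the bases that a transcript does not share numbered 3 in LIN28B, 4 in IGF2BP1, 3 in HMGA2 and 6 in TRIM71. HMGA2-210, the transcript with few counts, had 0 matches in its 3′ UTR of 7421 bases. All 9 canonical transcripts end with the poly(A) signal AATAAA within their last 50 bases, where AATAAA or ATTAAA is present in 77.4% of all canonical transcripts. A match is a stretch of letters and does not show that let-7 acts there. Counts per transcript do not give the position of a read, so they do not tell which 3′ ends were used.

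**Figure D3:**
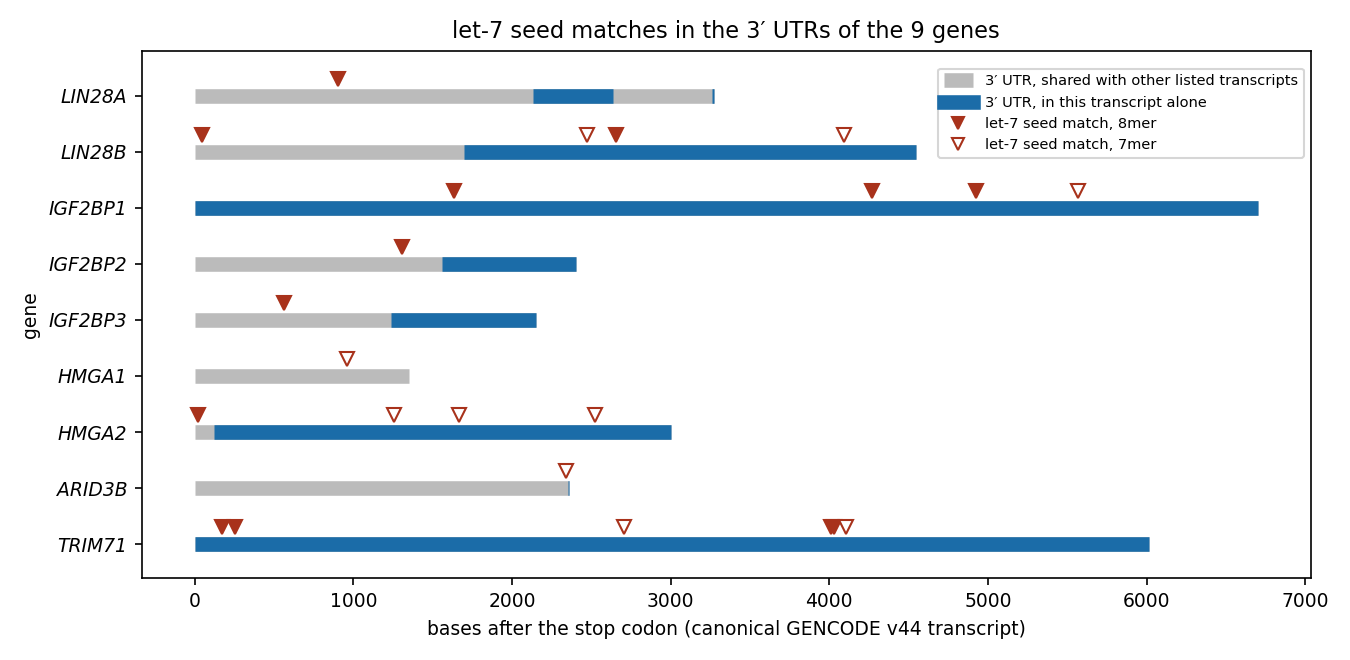
Map of the 3′ UTRs of the 9 canonical transcripts, in bases after the stop codon; blue stretches lie in a single listed transcript of the strand and grey stretches are shared, filled triangles mark 8mer and open triangles 7mer let-7 seed matches. TRIM71 carries 6 matches, and LIN28B, IGF2BP1 and HMGA2 4 each, most of them in blue stretches, whereas the single matches of the other 5 genes lie in grey ones.

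Since i-motifs (iMs), four-stranded structures formed by C-rich DNA, are the subject of the study, the promoters of the 9 genes were searched for putative iM-forming sequences, defined as 4 tracts of at least 3 Cs with loops of 0 to 7 bases on either strand, up to 1 kb from the canonical TSS in either direction. All 9 promoters held at least 1, and 71.2% of 20046 protein-coding promoters did. The numbers were 8 in IGF2BP2 and HMGA1, 6 in ARID3B, 5 in IGF2BP3, 4 in LIN28A, 3 in LIN28B, HMGA2 and TRIM71 and 1 in IGF2BP1, 41 in all, with a median of 4 against 2 over all promoters. Among the 4 highest genes the number ran from 8 in IGF2BP2 to 1 in IGF2BP1, so genes of like level differed in it. The sequence nearest to the TSS is shown for the 4 highest genes, with the C tracts in capitals and written 5′ to 3′ on the strand that holds the Cs.
HMGA2: CCCCCCaccaccaCCCCCtCCCC
IGF2BP2: CCCCCCCtCCCCgCCCtccgCCC
IGF2BP1: CCCCgCCCCCaCCCatCCCCC
LIN28B: CCCCCtCCCCCtctCCCaCCC
In GRCh38 these lie at chr12:65824366-65824388 (HMGA2, strand of the gene, 95 to 117 bases upstream of the TSS), chr3:185825051-185825073 (IGF2BP2, other strand, 9 to 31 bases upstream), chr17:48997129-48997149 (IGF2BP1, other strand, 236 to 256 bases upstream) and chr6:104957313-104957333 (LIN28B, strand of the gene, 206 to 226 bases downstream). LIN28B was the only member with all of its sequences downstream of the TSS. Whether any of these sequences folds in the cells was not measured in the RNA-seq data.

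**Figure D4:**
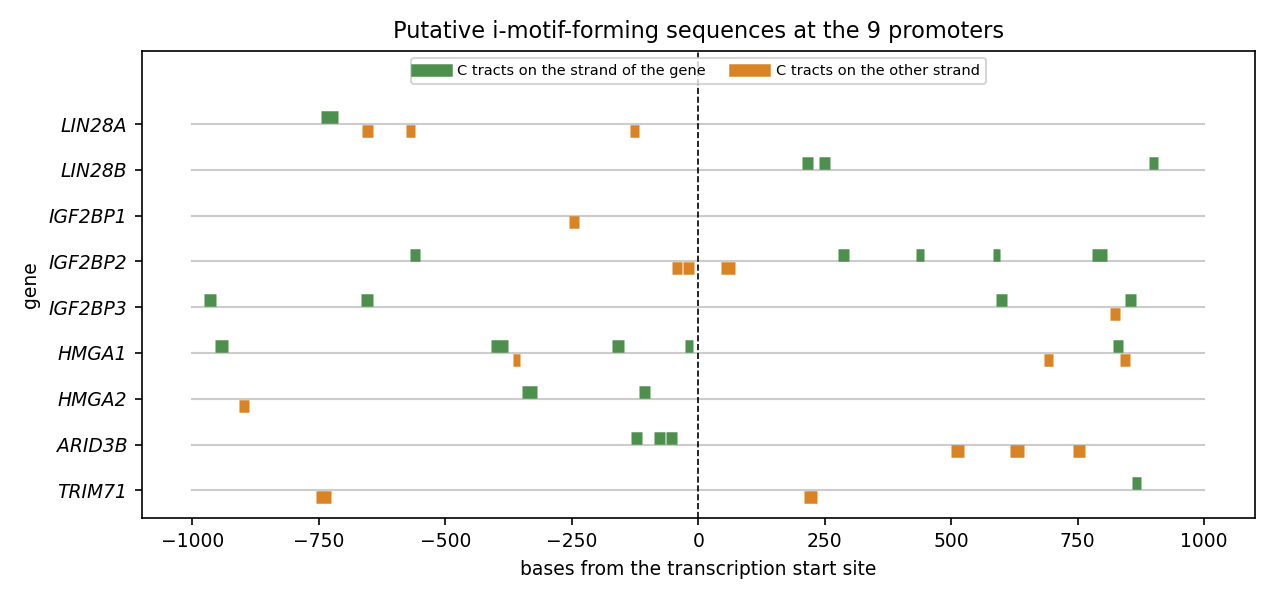
Positions of putative iM-forming sequences up to 1 kb upstream and downstream of the canonical transcription start site of the 9 genes, in bases; green boxes have their C tracts on the strand of the gene and orange boxes on the other strand. IGF2BP2 and HMGA1 hold 8 each and IGF2BP1 holds 1.

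Replicate 3 gave the lowest TPM for LIN28B, IGF2BP1, IGF2BP2, HMGA2 and TRIM71, the 5 members with 10 or more counts in all replicates. Their coefficients of variation over the replicates were 36.3%, 35.2%, 15.8%, 25.4% and 26.9%, with a median of 26.9%, and the median over the 9418 nuclear genes with as many counts was 25.3%. Replicate 3 was also the library with 25.8% mitochondrial counts. When mitochondrial genes were left out and TPM was rescaled, the coefficients were 18.5%, 17.2%, 10.9%, 5.60% and 10.4%, a median of 10.9% against 18.9% over those nuclear genes and 10.1% over the 1294 of them that had 1000 counts or more in all replicates. On that scale replicate 3 lay below the mean of the other replicates by a log2 difference of -0.49 in LIN28B and -0.45 in IGF2BP1, of -0.21 in TRIM71 and -0.14 in HMGA2, and above it by 0.14 in IGF2BP2. Over all 9418 genes the median log2 difference was 0.07 with quartiles of -0.26 and 0.45, and over the 1294 genes of high count the median was -0.16. LIN28B and IGF2BP1 thus lay below the lower quartile of all genes in replicate 3, and its cause was not tested. Without replicate 3 the median coefficient of the 5 members was 7.10%.

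Of 6 genes whose products act on let-7 precursors, all had a mean TPM of at least 1, although among these 6 only TRIM25 has a 3′ end fully of its own, and TUT7, the lowest, had 6, 11 and 5 counts. The highest were KHSRP, which promotes let-7 maturation, at 2864 ± 1176 TPM (SD, n = 3), TRIM25, a cofactor in the uridylation of let-7 precursors, at 55.2 ± 21.4 TPM, and HNRNPA1, which binds let-7 precursors, at 8.98 ± 1.38 TPM. Of 13 genes of microRNA processing and silencing, 8 reached 1 TPM, with a median of 1.66 TPM. The Argonaute genes AGO2, AGO1 and AGO4 were the highest at 44.1 ± 15.2, 22.2 ± 9.15 and 15.4 ± 1.07 TPM, and TARBP2, a partner of Dicer, had 0 counts and no 3′ end base of its own. LIN28B, at 40.8 TPM, was thus near AGO2 on this scale, but not in CPM, where LIN28B was at 146 and AGO2 at 420.

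Mature let-7 cannot be measured by a library primed at poly(A) tails, since mature microRNAs have none. Of 19 let-7 genes and host genes, 5 reached 1 TPM, and WDR82 (146 ± 46.2 TPM), HUWE1 (11.8 ± 0.826 TPM) and MIR98 (2, 2 and 0 counts) were the highest. MIRLET7A1, MIRLET7A2, MIRLET7A3, MIRLET7B, MIRLET7C, MIRLET7D, MIRLET7E, MIRLET7F1, MIRLET7F2, MIRLET7G and MIRLET7I all had 0 counts.

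Of 20 other genes that are known or predicted let-7 targets, 12 reached 1 TPM, with a median of 2.56 TPM. COIL, which encodes the scaffold of Cajal bodies, was the highest at 298 ± 92.8 TPM, followed by CCND2, a D-type cyclin, at 220 ± 41.7 TPM, and GNPTAB, an enzyme of lysosomal targeting, at 70.0 ± 15.1 TPM. COIL and CCND2 were in the TPM range of HMGA2, IGF2BP2 and IGF2BP1. In CPM, COIL was at 519 and CCND2 at 939, and IGF2BP2, the lowest of these 3 members, was at 664. IGF1R, CDC25A and CCNJ had 0 counts, and none of them has a 3′ end base of its own.

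Of 7 partners of the IGF2BP proteins on mRNA, 5 reached 1 TPM. The stabilising protein ELAVL1 was at 152 ± 47.0 TPM, SYNCRIP at 146 ± 38.9 TPM and the helicase DHX9 at 59.3 ± 28.3 TPM. Of 10 genes that write, erase or read m6A, the mRNA mark that IGF2BP proteins also bind, 4 reached 1 TPM, and YTHDF1, a cytoplasmic reader, was the highest at 177 ± 51.3 TPM before WTAP (45.4 ± 11.5 TPM) and METTL3 (11.9 ± 0.504 TPM). METTL14 and YTHDF2 had 0 counts, with shared 3′ ends.

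Of the other fetal growth genes, 3 of 7 have a 3′ end of their own, SALL4, DLK1 and AFP. SALL4, a transcription factor of embryonic cells, was the only 1 of 7 to reach 1 TPM, at 1.08 ± 0.320 TPM, and GPC3 had 2, 0 and 4 counts. IGF2, H19, DLK1, PEG10 and AFP had 0 counts. GPC3, IGF2 and PEG10 have no 3′ end base of their own, so for IGF2, the mRNA after which the IGF2BP genes are named, the 0 is not informative. High HMGA2, IGF2BP1 and IGF2BP2 and intermediate LIN28B thus stood beside no count for DLK1 and AFP.

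The label of the cells was set against marker genes. Of 6 markers of the kidney line, PAX2, the kidney transcription factor, was at 8.96 ± 3.24 TPM and KRT8 at 1.35 ± 0.433 TPM, while KRT18, NEFL and NEFM had 0 counts. VIM, with no 3′ end base of its own, had 0, 6 and 5 counts. NEFL has a 3′ end of its own, and KRT18 and NEFM do not. Of 5 markers of pluripotent cells, only SOX2 reached 1 TPM, at 89.0 ± 26.3 TPM. NANOG had 2, 2 and 6 counts and L1TD1 0, 4 and 0, and POU5F1 and DPPA4 had 0 counts. Like SOX2, NANOG, L1TD1 and DPPA4 have a 3′ end of their own, and POU5F1 does not. Of 8 markers of other lineages 1 reached 1 TPM, COL1A1 at 24.8 ± 0.330 TPM. PECAM1, with a 3′ end of its own, had 0, 2 and 1 counts. PTPRC, CD3E, ALB, HBB, CDH5 and GFAP had 0 counts, and none of them has a 3′ end wholly of its own, so these values do not show that such cells were absent. The summed TPM of the list ran from 24.6 to 25.2 over the replicates, and of the pluripotent list from 58.8 to 105. Thus, with several defining genes uncountable in these rows, the markers gave partial information on the line, and their part in the levels of the 9 genes was not tested.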

How the data were processed

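For each replicate, counts, transcript lengths and TPM of 247541 Ensembl transcripts were deposited by the authors. The submitters' processing notes name Trimmomatic 0.38.0, HISAT2 2.2.1, featureCounts 2.2.1 and hg38. The annotation, the strand setting and the handling of reads on several transcripts are not given in the sources used here. The deposited counts are whole reads without normalization, and the TPM deposited by the authors was recomputed from counts and lengths with a largest difference of 1.75e-10. In the column of lengths deposited by the authors, in bases, 94.0% of matched rows had the length of GENCODE v44.

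Transcript identifiers without version were joined to GENCODE v44 on GRCh38 (223558 rows matched, 23983 did not), and counts and TPM were summed per gene. Of 64 transcripts of the 9 genes, HMGA2-204, IGF2BP2-202 and ARID3B-201 differ in length between file and annotation, so that positions for them are those of GENCODE v44. CPM is the count per 1000000 counts of the library. Exonic bases in no other listed transcript of the same strand were counted over the 300 exonic bases at the 3′ end of each canonical transcript. Only matched rows counted as listed transcripts here, so overlap with the 23983 unmatched rows was not checked. Seed matches and C tracts were searched in the reference. No comparison between groups was possible. The scripts were tested on simulated data. The members and gene lists were chosen with earlier results of these data known, and no list supports a claim. All 9 members are named, and from each list every gene with 0 counts and the 3 of highest mean TPM, apart from 1 gene that is not reported here. Protein sequences were not used here. Scripts ran under Python 3.11.15, matplotlib 3.10.9, scipy 1.17.1, pandas 2.3.3 and numpy 2.4.6, and for size factors R 4.3.3 with edgeR 4.0.16 and DESeq2 1.42.0. Alternatives were other scales, thresholds, pseudocounts, seed definitions and transcripts, and each replicate left out in turn.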

Additional observations from a re-analysis of the deposited data

How the results depend on the processing

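The number of genes with a mean TPM of at least 1 stayed at 6 with CPM, without mitochondrial genes, with the median, with 1 TPM asked of every replicate and with each replicate left out (6 to 6), and was 8 above 0 TPM and 4 at 10 TPM. The share of IGF2BP1 in its family was 66.4% in CPM and 37.8% to 44.2% with a replicate left out. The difference of HMGA1 minus HMGA2 was -8.80 without mitochondrial genes, -9.92 in CPM and -11.33 with a pseudocount of 0.1, and -8.53 to -8.16 with a replicate left out. That of LIN28B minus LIN28A was 7.17 in CPM and 8.60 with a pseudocount of 0.1, and 5.10 to 5.65 with a replicate left out. The median coefficient of variation was 10.9% without mitochondrial genes, 16.9% in CPM, 13.5% with edgeR TMM library sizes and 13.9% with DESeq2 size factors, and 7.10% to 36.7% with a replicate left out, lowest without replicate 3. Seed matches numbered 13 as 8mers and 38 as 6mers (bases 2 to 7), and 19 in the longest annotated 3′ UTRs. Without mitochondrial genes 4 of 9 levels moved by more than 1 SD, in CPM 7, and with a replicate left out 0. With transcripts of either strand, an alternative chosen after seeing the data, 5 in place of 6 genes had a 3′ end of their own, as IGF2BP3 dropped out. No paired analysis was possible because there was a single group. The counts limit LIN28A, HMGA1 and ARID3B most, whose 3′ ends are shared with other listed transcripts. IGF2BP3 also had few counts, and its canonical 3′ end is covered on the opposite strand. Whether that overlap bears on its counts was not tested.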

Other observations

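Genes that lie next to the 9 genes or copy them held few counts. The antisense genes HMGA2-AS1, IGF2BP2-AS1 and LIN28B-AS1 had 66, 30 and 62 counts, 10, 10 and 24 counts, and 0 counts in replicates 1, 2 and 3. Both antisense genes with counts were low beside HMGA2 and IGF2BP2, and without knowing the strand setting of the counting, reads of a gene and its antisense partner cannot be told apart. Of 10 pseudogenes of LIN28A, HMGA1 and ARID3B, the highest had 4 counts in all replicates together, and the 7 processed pseudogenes of HMGA1 held 6 counts in all, so these copies were as low in counts as HMGA1 itself.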
